A study of Mus musculus with 4 samples.

Results

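The 10 genes described here are the mesenchymal and EMT genes *Snai1*, *Snai2*, *Twist1*, *Twist2*, *Zeb1*, *Zeb2*, *Prrx1*, *Vim*, *Cdh2* and *Cdh11*, chosen by name from the 20804 protein-coding genes of a strand-specific RNA-seq table. Mouse embryonic fibroblasts (MEF) came from C57BL/6 embryos at embryonic day 15.5, from the trunk left once head, limbs, tail and inner organs had been taken off. They were immortalized with a simian virus. *Hmga2*+/+ (wild type) and *Hmga2*-/- (knockout, written Hmga-/- in the genotype label) MEF were kept overnight in medium with 1% fetal calf serum. They then received water (Ctrl) or, for 24 h, human recombinant TGFB1 at 10 ng/ml. This gives *Hmga2*+/+ Ctrl, *Hmga2*+/+ TGFB1, *Hmga2*-/- Ctrl and *Hmga2*-/- TGFB1, with 1 library each. How many cell lines or embryos stand behind each genotype, and whether duplicates were pooled, is not given in the sources used here, so genotype and line cannot be told apart, and no difference below has a replicate check or a p-value. The comparisons address the response of MEF to TGFB1 and its dependence on *Hmga2*.

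Epithelial to mesenchymal transition (EMT) is the change in which epithelial cells give up cell contacts and acquire a migratory, fibroblast-like state, and TGFB1 is a classical inducer of it. SNAI, ZEB and TWIST proteins are the transcription factors known to drive it: SNAI and ZEB proteins bind E-box sequences and repress epithelial genes such as *Cdh1* (E-cadherin), and TWIST proteins are basic helix-loop-helix factors. PRRX1 is a homeodomain factor of mesenchyme. Vimentin, N-cadherin (*Cdh2*) and OB-cadherin (*Cdh11*) are structural proteins by which mesenchymal cells are recognised. Fibroblasts are mesenchymal cells and are known to express many of these genes without a transition.

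To show regulatory sequence of transcription factors that moved, where a window was held, the promoters of *Twist1* and *Prrx1*, which were lower after TGFB1, and of *Snai1*, which was higher in *Hmga2*-/- than in *Hmga2*+/+ MEF with TGFB1, are printed with that of *Vim*. Each is the RefSeq window of 300 bases on GRCm38.p6 (mm10), from 250 bases before to 50 bases after the annotated start, 5′ to 3′ on the strand of the gene. Capitals mark matches on either strand to 4 motifs: CACCTG, an E-box bound by SNAI and ZEB proteins, CAGAC, a SMAD-binding core, TATAAA and CCAAT. Of 32817 promoter windows of this length, 20.2% hold CACCTG, 49.6% CAGAC, 13.6% TATAAA and 37.4% CCAAT. Windows were held for 6 of the 10 genes and not for *Snai2*, *Zeb1*, *Cdh2* and *Cdh11*.
Twist1, chr12:33957421-33957720, plus strand: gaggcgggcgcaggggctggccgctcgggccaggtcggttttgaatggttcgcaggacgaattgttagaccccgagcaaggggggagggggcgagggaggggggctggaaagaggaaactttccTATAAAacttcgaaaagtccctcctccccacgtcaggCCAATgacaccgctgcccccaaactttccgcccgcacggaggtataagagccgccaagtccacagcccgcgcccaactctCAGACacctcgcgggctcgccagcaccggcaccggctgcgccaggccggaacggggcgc
Prrx1, chr1:163313601-163313900, minus strand: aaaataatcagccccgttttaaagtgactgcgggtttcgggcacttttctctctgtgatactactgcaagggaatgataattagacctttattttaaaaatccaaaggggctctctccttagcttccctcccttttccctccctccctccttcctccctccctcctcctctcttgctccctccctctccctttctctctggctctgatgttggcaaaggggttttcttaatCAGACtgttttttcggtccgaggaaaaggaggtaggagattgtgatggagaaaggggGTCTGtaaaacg
Snai1, chr2:167537945-167538244, plus strand: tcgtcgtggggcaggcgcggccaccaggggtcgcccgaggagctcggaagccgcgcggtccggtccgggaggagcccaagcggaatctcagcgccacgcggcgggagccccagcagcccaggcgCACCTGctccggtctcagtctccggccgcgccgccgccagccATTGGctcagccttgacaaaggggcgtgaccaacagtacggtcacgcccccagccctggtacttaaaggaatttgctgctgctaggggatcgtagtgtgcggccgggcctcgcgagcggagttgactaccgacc
Vim, chr2:13574061-13574360, plus strand: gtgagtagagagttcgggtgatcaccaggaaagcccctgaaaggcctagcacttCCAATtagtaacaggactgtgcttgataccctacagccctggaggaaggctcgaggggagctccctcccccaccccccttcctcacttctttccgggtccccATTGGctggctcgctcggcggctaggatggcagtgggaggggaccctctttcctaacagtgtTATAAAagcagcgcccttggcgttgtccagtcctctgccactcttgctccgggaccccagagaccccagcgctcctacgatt

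The *Snai1* window has its CACCTG 126 bases before the start, and the windows of *Twist1*, *Twist2*, *Prrx1* and *Vim* hold none. CAGAC lies 9 bases before the start of *Twist1* and 19 bases before that of *Prrx1*. TATAAA lies 32 bases before the start of *Vim* and 126 bases before that of *Twist1*. The windows differ in base composition: *Snai1* has 34 CpG dinucleotides, *Twist1* 27, *Vim* 11 and *Prrx1* 6, where the median promoter has 7. A match of letters is a description and shows no binding, and SMAD binding was not measured here.

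The values are RPKM, the reads on the exons of a transcript on its annotated strand, scaled to transcript length and to library depth, so levels can be set side by side between genes. Depth was derived from the steps between low RPKM values and came to 56140000 to 57290000 mapped reads per library. A transcript of 1 kb needs about 0.0524 to 0.0534 RPKM to hold 3 reads. The labels were checked on *Hmga2*, which had 14.8 RPKM in *Hmga2*+/+ Ctrl and 40.7 RPKM in *Hmga2*+/+ TGFB1 and 0 reads in both *Hmga2*-/- libraries, at least 1191-fold and at least 3299-fold lower against a floor of 3 reads per library. TGFB1 treatment was checked on *Ccn2*, a known TGFB1 target, which went from 13.2 to 173 RPKM in *Hmga2*+/+ MEF and from 24.9 to 359 RPKM in *Hmga2*-/- MEF. All 8 fibroblast markers were found, and 7 had a mean of at least 1 RPKM, with *Col1a1* at 272 to 363 RPKM. Of these 7, *Dcn*, *Pdgfra* and *Col3a1* fell after TGFB1 in both genotypes, *Thy1* rose in both and *Pdgfrb* rose in *Hmga2*-/- MEF, and the summed level of the list was 767 to 917 RPKM per library. Markers of other cells were low: their sums per library were 2.67 to 6.03 RPKM over 9 epithelial, 3.89 to 8.16 over 6 endothelial, 1.39 to 1.99 over 5 leukocyte, 1.31 to 4.56 over 6 neural and 0.0430 to 0.131 over 6 skeletal muscle markers. *Cldn5* (endothelial) and *Myod1*, *Myog* and *Ckm* (muscle) were at 0 in every library. The epithelial sum was higher in both *Hmga2*-/- libraries (5.37 and 6.03 RPKM) than in both *Hmga2*+/+ libraries (2.67 and 3.14 RPKM), and 8 of its 9 genes were under 1 RPKM in every library. The endothelial sum was likewise higher in both *Hmga2*-/- libraries (7.12 and 8.16 RPKM against 3.89 and 4.86 RPKM), and the neural sum was higher in both TGFB1 libraries (3.10 and 4.56 RPKM against 1.31 in each Ctrl library). Within the endothelial list, *Kdr* went from 1.11 to 4.46 RPKM on TGFB1 in *Hmga2*+/+ and from 1.455 to 7.39 in *Hmga2*-/- MEF. *Tek* went the other way, from 2.75 to 0.33 and from 5.65 to 0.686 RPKM. In the neural list *Tubb3* went from 0.913 to 2.81 and from 0.957 to 4.37 RPKM. The part of these markers in any result was not tested.

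All 10 genes were present in every library. In *Hmga2*+/+ Ctrl the order of levels was *Vim* (958 RPKM), *Prrx1* (81.4), *Twist1* (62.8), *Snai2* (41.5), *Cdh11* (37.1), *Cdh2* (20.3), *Zeb1* (17.0), *Zeb2* (10.2), *Twist2* (6.85) and *Snai1* (1.73), and no neighbours in this order overlapped in their 95% exact Poisson intervals. Counting the gene itself, *Vim* was at or above 99.98% of the 10314 protein-coding genes with a mean of at least 1 RPKM, and *Snai1* at or above 7.72% of them. With the longest gene body for each gene, the same *Vim*, *Prrx1* lead and the same *Zeb2*, *Twist2*, *Snai1* tail stood in all 4 libraries. In between, the order after TGFB1 was *Cdh11*, *Twist1*, *Cdh2*, *Snai2*, *Zeb1* in *Hmga2*+/+ and *Cdh11*, *Cdh2*, *Twist1*, *Zeb1*, *Snai2* in *Hmga2*-/- MEF, and the intervals of *Cdh2* and *Twist1* and those of *Zeb1* and *Snai2* overlapped in the latter library. In *Hmga2*-/- Ctrl those of *Cdh2* and *Cdh11* overlapped. These intervals cover counting error only and say nothing of the spread between cultures. The order also depends on the model that stands for each gene. A *Twist1* model of 620 bases had 94.5 RPKM in *Hmga2*+/+ Ctrl, above the 81.4 RPKM of *Prrx1*.

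**Figure D1:**
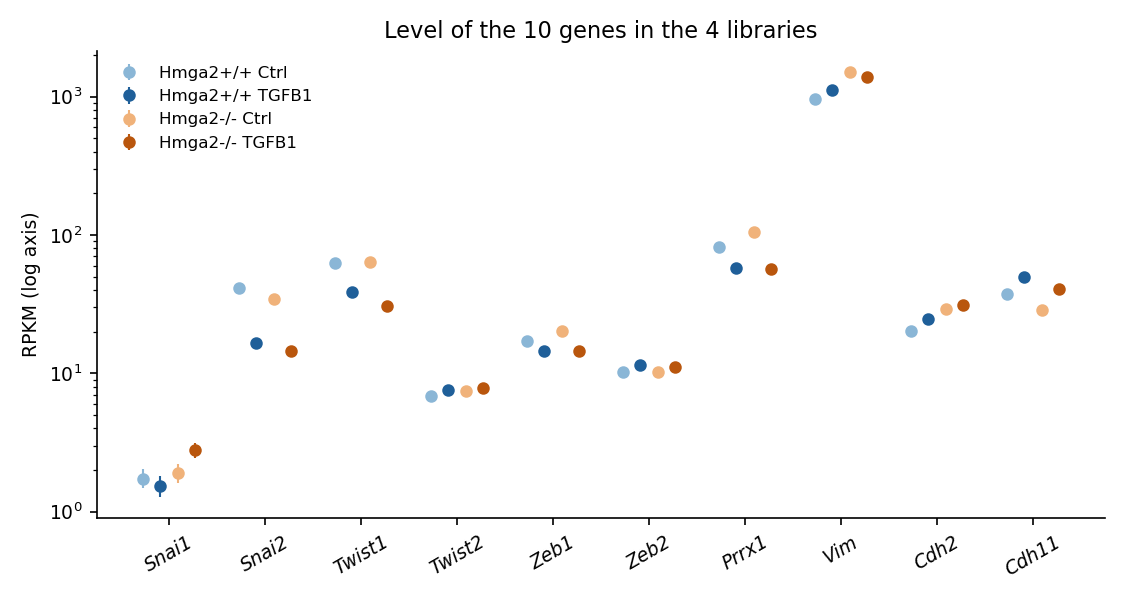
RPKM of each gene on a log axis in the 4 libraries, 1 point per library, with 95% exact Poisson intervals of the reads that are mostly smaller than the points. *Snai2*, *Twist1*, *Prrx1* and *Zeb1* sit lower in the TGFB1 library of each genotype, and *Snai1* is the lowest gene in each library, at 1.53 to 2.79 RPKM.

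In *Hmga2*+/+ MEF, TGFB1 went with lower transcript levels of *Snai2* and *Twist1*, both transcription factors, and none of the 10 genes rose. A gene is said to rise or fall where its RPKM differed at least 1.5-fold between 2 libraries, the threshold of the study's methods. *Snai2* fell 2.52-fold and *Twist1* fell 1.62-fold, 2 of the 10 genes, where 15.3% of the 10314 protein-coding genes fell by as much. The other 8 had log2 changes between −0.49 and 0.42, and 0 of 10 rose, where 11.1% of protein-coding genes rose. The counts of 2 and 0 are close to these shares, so they are not a result about the 10 genes as a set. With libraries rescaled by their median ratio, 1413 genes rose and 1292 fell in place of 1148 and 1579, and the same 2 of the 10 genes fell. The median log2 change of the 10 genes was −0.01, beside −0.04 over all 10314 genes, and turned to 0.0690 with rescaled libraries and to 0.0124 with a pseudocount of 1 RPKM. In a bulk library, fewer cells that express a gene and less of its RNA per cell cannot be told apart.

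In *Hmga2*-/- MEF, 3 of the transcription factors fell after TGFB1. *Snai2* fell 2.40-fold, *Twist1* fell 2.07-fold and *Prrx1* fell 1.83-fold, 3 of the 10 genes, where 13.7% of protein-coding genes fell. The other 7 lay between −0.49 and 0.56 on the log2 scale and 0 rose, where 12.8% of protein-coding genes rose. *Snai2* and *Twist1* fell in both genotypes, as did 11.3% of protein-coding genes, and 0 of the 10 genes rose in both, as did 9.39%. The median log2 change of the 10 genes was −0.01, beside 0.02 over all genes, and turned to 0.0126 with rescaled libraries and was −0.0676 with the transcript of highest RPKM for each gene. The counts of 2 and 3 among 10 genes were not tested against these shares.

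**Figure D2:**
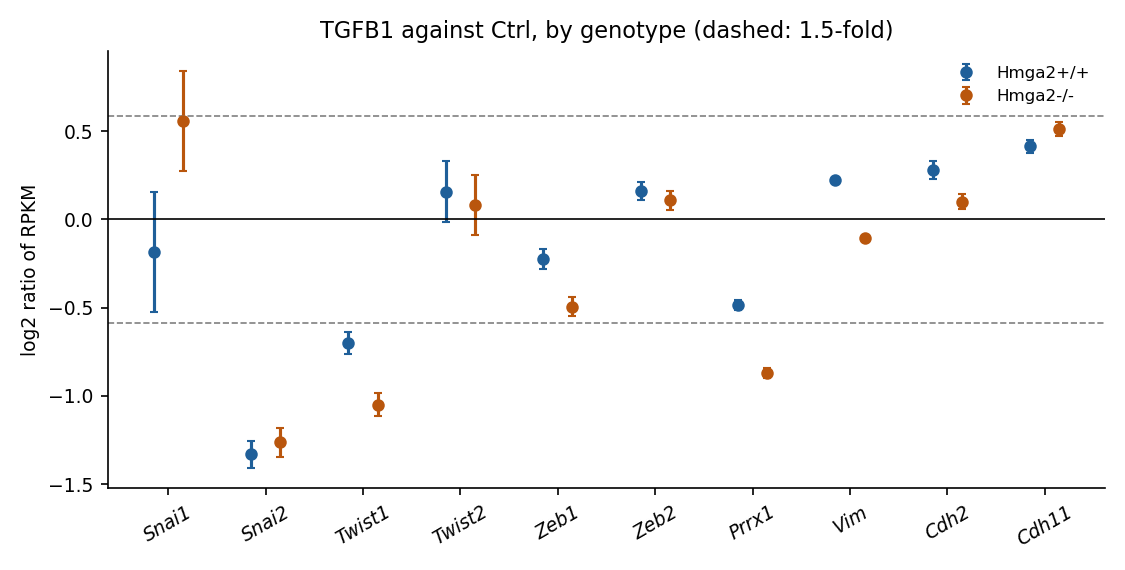
Log2 ratio of RPKM in the TGFB1 over the Ctrl library for each gene, in *Hmga2*+/+ (blue) and *Hmga2*-/- (orange) MEF, with 95% intervals from counting error and dashed lines at 1.5-fold. *Snai2* and *Twist1* lie below the lower line in both genotypes and *Prrx1* in *Hmga2*-/- MEF, and no gene lies above the upper line.

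The Snail paralogues were at very different levels. *Snai2* (Slug), on the plus strand of chromosome 16 from 14705859 to 14709382, had 41.5 RPKM in *Hmga2*+/+ Ctrl, 16.5 in *Hmga2*+/+ TGFB1, 34.6 in *Hmga2*-/- Ctrl and 14.4 in *Hmga2*-/- TGFB1. Both TGFB1 libraries were below both Ctrl libraries. The log2 change was −1.33 (95% exact interval from counting error −1.41 to −1.25) in *Hmga2*+/+ and −1.26 (−1.35 to −1.18) in *Hmga2*-/- MEF, and 2.80% and 3.38% of protein-coding genes fell as far or further. The change differed between genotypes by 0.07 (−0.05 to 0.18), which was not detectable at this depth. *Snai2* was also the gene with the widest range over the 4 libraries, 1.53 on the log2 scale.

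*Snai1* (Snail), the repressor of *Cdh1* that is best known as an early TGFB1 target, lies on the plus strand of chromosome 2 from 167538195 to 167542811. It had 1.73 RPKM from 157 reads in *Hmga2*+/+ Ctrl and 1.53 RPKM from 141 reads in *Hmga2*+/+ TGFB1. In *Hmga2*-/- MEF it had 1.89 RPKM from 173 reads in Ctrl and 2.79 RPKM from 256 reads in TGFB1, the highest of the 4. The log2 change on TGFB1 was −0.18 (−0.52 to 0.15) in *Hmga2*+/+ and 0.56 (0.27 to 0.84) in *Hmga2*-/- MEF, the latter 1.47-fold and just under the threshold. The difference between the responses, *Hmga2*-/- minus *Hmga2*+/+, was 0.74 (0.31 to 1.17), and 1.21% of protein-coding genes differed by as much. The ratio of *Snai2* to *Snai1* RPKM went from 23.9 to 10.8 in *Hmga2*+/+ and from 18.3 to 5.17 in *Hmga2*-/- MEF.

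*Twist1*, which patterns cranial and limb mesenchyme, lies on the plus strand of chromosome 12 from 33957671 to 33959831. It had 62.8 RPKM in *Hmga2*+/+ Ctrl, 38.7 in *Hmga2*+/+ TGFB1, 63.4 in *Hmga2*-/- Ctrl and 30.6 in *Hmga2*-/- TGFB1. With the longest gene body the Ctrl libraries were alike, with a log2 difference of 0.01 (−0.04 to 0.07), and the *Hmga2*-/- TGFB1 library was the lowest. The log2 change was −0.70 (−0.76 to −0.64) in *Hmga2*+/+ and −1.05 (−1.12 to −0.99) in *Hmga2*-/- MEF, a difference of −0.35 (−0.44 to −0.26), and 12.5% of protein-coding genes differed by as much between genotypes. A short model of 620 bases inside the gene gave the same order, with 94.5, 54.9, 102 and 43.7 RPKM in the 4 libraries. In this model the Ctrl libraries differed by 0.12 (0.05 to 0.18), an interval that excludes 0.

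*Twist2* (Dermo1), the paralogue known from dermis, lies on the plus strand of chromosome 1 from 91801461 to 91848034. It had 6.85 and 7.64 RPKM in *Hmga2*+/+ and 7.43 and 7.86 RPKM in *Hmga2*-/- MEF, Ctrl before TGFB1, from 512 to 596 reads. All 4 values lay within 0.20 on the log2 scale. The log2 change was 0.16 (−0.02 to 0.33) in *Hmga2*+/+ and 0.08 (−0.09 to 0.25) in *Hmga2*-/- MEF, neither detectable at this depth in the values as deposited. With a shorter *Twist2* model in place of the longest, the latter was −0.03. Rescaling the libraries by their median ratio shifts the *Hmga2*+/+ change by 0.08, which takes its interval above 0. The ratio of *Twist1* to *Twist2* RPKM went from 9.18 to 5.06 in *Hmga2*+/+ and from 8.54 to 3.90 in *Hmga2*-/- MEF.

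*Zeb1*, a zinc finger homeodomain repressor on the plus strand of chromosome 18 from 5591860 to 5775468, had 17.0 RPKM in *Hmga2*+/+ Ctrl, 14.5 in *Hmga2*+/+ TGFB1, 20.4 in *Hmga2*-/- Ctrl and 14.5 in *Hmga2*-/- TGFB1. The TGFB1 libraries were alike and the Ctrl libraries were both above them. The log2 change was −0.22 (−0.28 to −0.17) in *Hmga2*+/+ and −0.49 (−0.55 to −0.44) in *Hmga2*-/- MEF, beyond counting error and under 1.5-fold in both. All 4 annotated *Zeb1* models were lower after TGFB1 in each genotype. In *Hmga2*+/+ MEF the interval of a model of 1605 bases, −0.57 to 0.10, includes 0. The models overlap, so reads on shared exons can enter several of them.

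*Zeb2*, its paralogue at 44983512 to 45113279 on chromosome 2, minus strand, had 10.2, 11.4, 10.3 and 11.1 RPKM in *Hmga2*+/+ Ctrl, *Hmga2*+/+ TGFB1, *Hmga2*-/- Ctrl and *Hmga2*-/- TGFB1. It was the member with the narrowest range, 0.16 on the log2 scale. The log2 change was 0.16 (0.11 to 0.21) in *Hmga2*+/+ and 0.11 (0.05 to 0.16) in *Hmga2*-/- MEF, slightly higher in both. The ratio of *Zeb1* to *Zeb2* RPKM accordingly went from 1.66 to 1.27 in *Hmga2*+/+ and from 1.98 to 1.31 in *Hmga2*-/- MEF.

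The 8 *Zeb2* models did not move together. The 3 models that run to the 3′ end of the gene, of 8876 to 9216 bases, were higher after TGFB1 in both genotypes, by 0.11 to 0.19 on the log2 scale. A model of 603 bases from 45110016 to 45117395, which starts upstream of the others, had 5.20 RPKM in *Hmga2*+/+ Ctrl, 2.75 in *Hmga2*+/+ TGFB1, 4.45 in *Hmga2*-/- Ctrl and 2.24 in *Hmga2*-/- TGFB1. It fell 1.89-fold and 1.99-fold, and a neighbouring 5′ model of 1276 bases fell 1.73-fold and 1.79-fold. The other 3 models had log2 changes between −0.08 and −0.18 in *Hmga2*+/+ and between −0.20 and −0.52 in *Hmga2*-/- MEF. Models overlap and each was counted on its own, so reads on shared exons enter several of them. The antisense RNA *Zeb2os*, which overlaps this 5′ region on the plus strand, had 0.426 and 0.309 RPKM in *Hmga2*+/+ and 0.626 and 0.311 RPKM in *Hmga2*-/- MEF, Ctrl before TGFB1, from 23 to 46 reads.

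*Prrx1*, at 163245119 to 163313650 on chromosome 1, minus strand, was the most abundant of the 7 transcription factors by the longest gene body of each. It had 81.4 RPKM in *Hmga2*+/+ Ctrl, 58.1 in *Hmga2*+/+ TGFB1, 104 in *Hmga2*-/- Ctrl and 57.2 in *Hmga2*-/- TGFB1. The TGFB1 libraries as deposited were close, with a log2 difference of −0.02 (−0.05 to 0.01), and the Ctrl libraries were apart by 0.36 (0.33 to 0.38). The former depends on the model. In a model of 2360 bases the TGFB1 libraries differed by −0.37 (−0.48 to −0.26). In a model of 4093 bases they differed by 0.06 (0.005 to 0.12). The log2 change was −0.49 (−0.52 to −0.46), 1.40-fold, in *Hmga2*+/+ and −0.87 (−0.90 to −0.84) in *Hmga2*-/- MEF. All 4 *Prrx1* models were lower after TGFB1, by 1.34-fold to 1.59-fold in *Hmga2*+/+ and by 1.83-fold to 2.19-fold in *Hmga2*-/- MEF. Over the 7 transcription factors, summed RPKM went from 221 to 148 in *Hmga2*+/+ and from 242 to 138 in *Hmga2*-/- MEF, and *Prrx1*, *Twist1* and *Snai2* made up 83.9%, 76.3%, 83.5% and 73.9% of that sum in the 4 libraries.

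*Vim* encodes vimentin, the intermediate filament of mesenchymal cells, on the plus strand of chromosome 2 from 13574311 to 13582826. It had 958 RPKM in *Hmga2*+/+ Ctrl, 1119 in *Hmga2*+/+ TGFB1, 1497 in *Hmga2*-/- Ctrl and 1390 in *Hmga2*-/- TGFB1. Both *Hmga2*-/- libraries were above both *Hmga2*+/+ libraries. The log2 change on TGFB1 was 0.22 (0.21 to 0.24) in *Hmga2*+/+ and −0.11 (−0.12 to −0.10) in *Hmga2*-/- MEF, opposite in sign and both under 1.5-fold. At 97696 reads or more per library the counting error of *Vim* is small, and the spread between cultures, which is unknown, sets what these differences are worth.

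The mesenchymal cadherins were both higher after TGFB1. *Cdh2*, at 16588877 to 16809246 on chromosome 18, minus strand, had 20.3 RPKM in *Hmga2*+/+ Ctrl, 24.7 in *Hmga2*+/+ TGFB1, 29.1 in *Hmga2*-/- Ctrl and 31.2 in *Hmga2*-/- TGFB1. Its log2 change was 0.28 (0.23 to 0.33) in *Hmga2*+/+ and 0.10 (0.06 to 0.15) in *Hmga2*-/- MEF. *Cdh11*, at 102632095 to 102785111 on chromosome 8, minus strand, had 37.1, 49.5, 28.7 and 40.9 RPKM in the same order. Its log2 change was 0.42 (0.38 to 0.45) in *Hmga2*+/+ and 0.51 (0.47 to 0.55) in *Hmga2*-/- MEF, the largest increase among the 10 genes in *Hmga2*+/+ MEF and 1.33-fold and 1.43-fold in size. The sum of both cadherins was 57.4 and 74.2 RPKM in *Hmga2*+/+ and 57.8 and 72.1 RPKM in *Hmga2*-/- MEF, so the sums were close between genotypes while the ratio of *Cdh11* to *Cdh2* was 1.83 and 2.01 in *Hmga2*+/+ and 0.987 and 1.31 in *Hmga2*-/- MEF. *Cdh1* lay between 0.0840 and 0.18 RPKM, from 21 to 45 reads, and *Cdh2* was 173-fold to 346-fold above it.

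**Figure D3:**
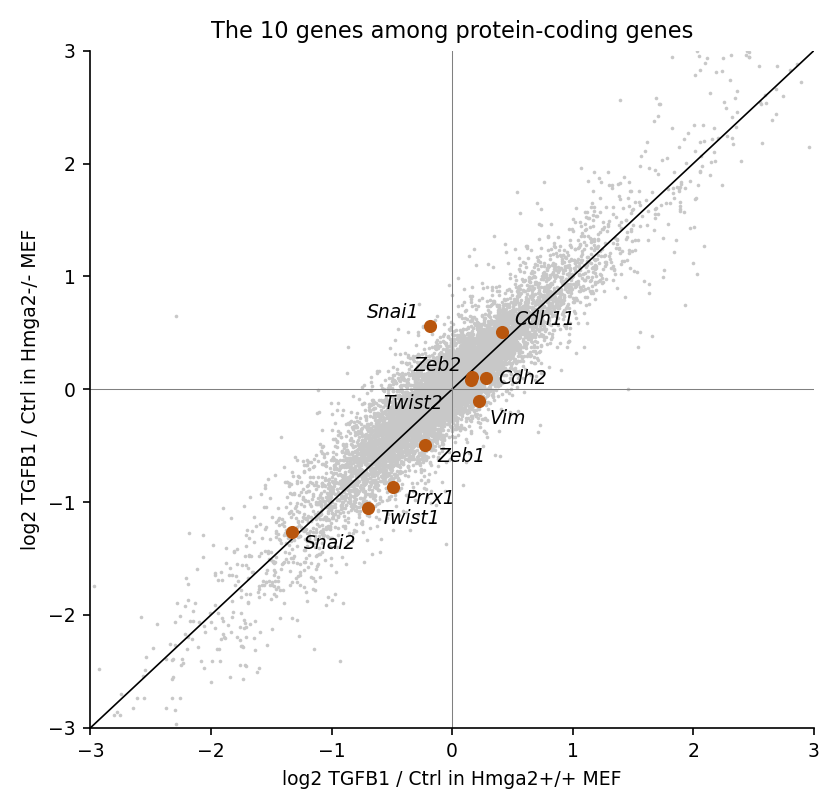
Log2 change on TGFB1 in *Hmga2*+/+ (x axis) and *Hmga2*-/- MEF (y axis), with the 10 genes in orange, the other protein-coding genes with a mean of at least 1 RPKM in grey and the line of equal change in black; 73 genes lie outside the range of 3 on the log2 scale. *Snai1* lies above the line by 0.74 and *Prrx1*, *Twist1* and *Vim* lie below it by 0.38, 0.35 and 0.33, and the points of *Twist2* and *Zeb2* almost coincide.

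Without TGFB1, *Hmga2*-/- MEF had more *Vim*. It was 1.56-fold higher than in *Hmga2*+/+ MEF, a log2 difference of 0.64 (0.63 to 0.66), and 1.43% of protein-coding genes were as much higher. This was 1 of the 10 genes, where 1.91% of protein-coding genes were at least 1.5-fold higher in *Hmga2*-/- Ctrl, and 0 of 10 were lower, where 1.15% were. *Cdh2* was 1.43-fold higher, *Prrx1* 1.28-fold and *Zeb1* 1.20-fold higher, and *Cdh11* and *Snai2* had log2 differences of −0.37 (−0.41 to −0.33) and −0.26 (−0.32 to −0.20). By the longest gene body for each, *Snai1*, *Twist1*, *Twist2* and *Zeb2* had intervals that include 0. The median log2 difference of the 10 genes was 0.12, beside −0.01 over all genes.

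With TGFB1, *Snai1* was the 1 gene of the 10 past 1.5-fold between genotypes, and 5 others differed beyond counting error by less. *Snai1* was 1.83-fold higher in *Hmga2*-/- than in *Hmga2*+/+ MEF, a log2 difference of 0.87 (0.57 to 1.18), and 0.873% of protein-coding genes were as much higher. With a pseudocount of 1 RPKM the *Snai1* difference was 0.58, just under the threshold. This was 1 of the 10 genes, where 2.59% of protein-coding genes were at least 1.5-fold higher, and 0 of 10 were lower, where 1.45% were. *Cdh2* (0.34) and *Vim* (0.31) were again higher on the log2 scale, *Twist1* (−0.34), *Cdh11* (−0.28) and *Snai2* (−0.19) lower. With the longest gene body for each, *Zeb1*, *Zeb2*, *Prrx1* and *Twist2* had intervals that include 0 in the values as deposited. Rescaling the libraries by their median ratio shifts this comparison by −0.03. That takes the intervals of *Prrx1* and *Zeb2*, with upper ends of 0.008 and 0.009, below 0. The median was −0.02, beside 0.04 over all genes. Each of these comparisons shares a library with a TGFB1 comparison above, so they are not independent of each other.

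**Figure D4:**
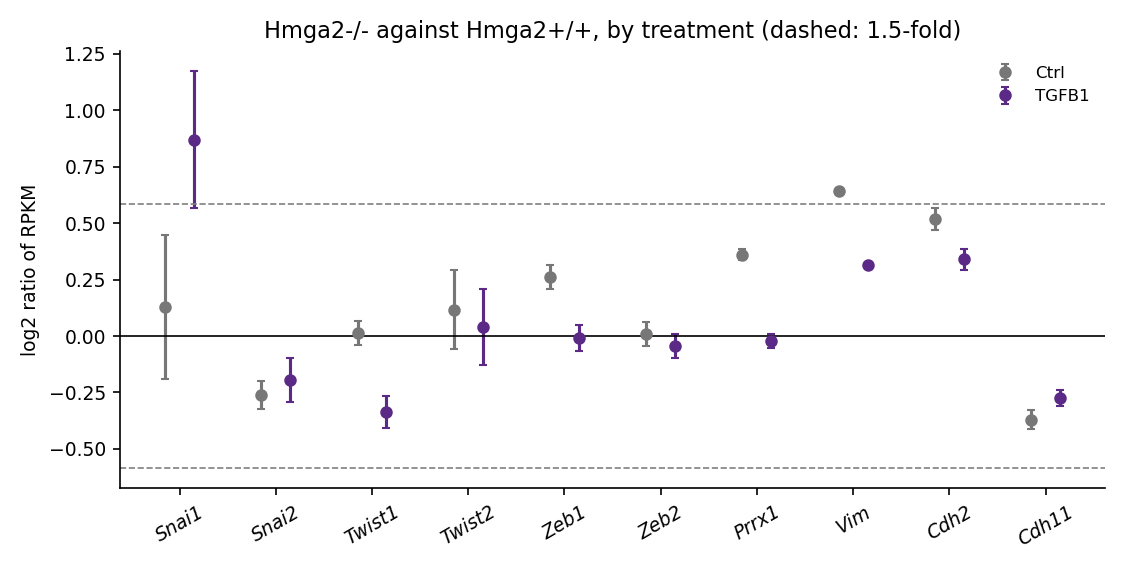
Log2 ratio of RPKM in *Hmga2*-/- over *Hmga2*+/+ MEF for each gene in the Ctrl (grey) and TGFB1 (purple) libraries, with 95% intervals from counting error and dashed lines at 1.5-fold. *Vim* lies above the upper line in Ctrl and *Snai1* in TGFB1, and *Cdh2* and *Vim* lie above 0 and *Cdh11* and *Snai2* below 0 under both treatments.

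Of 32 other EMT and mesenchymal transcription factors, 24 had a mean of at least 1 RPKM, and these included both directions. In *Hmga2*+/+ MEF 5 rose and 7 fell, where 11.1% of protein-coding genes rose and 15.3% fell, and in *Hmga2*-/- MEF 5 rose and 6 fell, where 12.8% rose and 13.7% fell. These same shares are the background of the list counts that follow, and no list was tested against them. *Runx1*, a runt-domain factor, went up to 8.46 RPKM from 1.17 in *Hmga2*+/+ MEF and up to 12.6 RPKM from 1.71 in *Hmga2*-/- MEF. *Osr1* and *Osr2*, odd-skipped zinc finger factors of mesenchyme, and *Msx1*, a homeobox factor of limb and craniofacial mesenchyme, fell in both genotypes. Their log2 changes in *Hmga2*+/+ MEF were −1.91, −2.80 and −1.71, and in *Hmga2*-/- MEF they were −2.03, −3.004 and −2.10. *Osr2* went down to 0.933 RPKM from 6.49 in *Hmga2*+/+ MEF and to 0.835 RPKM from 6.70 in *Hmga2*-/- MEF. The list had a median log2 change of −0.25 and −0.05, beside −0.04 and 0.02 over all genes. *Prrx2*, the paralogue of *Prrx1* and named here because of that, went from 9.59 to 2.92 and from 7.95 to 2.71 RPKM, and *Snai3* was under 0.1 RPKM in every library.

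The 22 co-repressors and stability regulators of SNAI1 and ZEB1 were all expressed and 0 fell. In each genotype 3 of 22 rose, namely *Loxl2*, *Loxl3* and *Pak1*, close to the 11.1% and 12.8% of all genes, so the count is not a result about these regulators. *Loxl2* and *Loxl3*, lysyl oxidases that act on SNAI1, went from 11.4 to 17.4 and from 8.10 to 13.3 RPKM in *Hmga2*+/+ MEF, and from 10.9 to 23.6 and from 7.94 to 20.0 RPKM in *Hmga2*-/- MEF. *Pak1*, a kinase of SNAI1, went from 3.22 to 6.18 and from 3.11 to 6.98 RPKM. The list had median log2 changes of 0.09 and 0.21, beside −0.04 and 0.02 over all genes.

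All 19 structural genes of mesenchyme were above the minimum, and most rose. In *Hmga2*+/+ MEF 10 rose and 4 fell, and in *Hmga2*-/- MEF 11 rose and 4 fell, beside 11.1% up and 15.3% down and 12.8% up and 13.7% down over all genes. The median log2 changes were 0.61 and 0.75, beside −0.04 and 0.02. *Spp1* (osteopontin) rose from 19.4 to 303 and from 14 to 321 RPKM, and *Tagln*, which encodes the actin-binding protein SM22, from 9.66 to 64.8 and from 18.1 to 109 RPKM. The 4 that fell in each genotype were *S100a4*, with log2 changes of −2.06 and −1.49, *Pdgfra* (−1.13 and −0.82), *Col3a1* (−0.70 and −0.75) and *Mmp14* (−0.67 and −0.69).

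Genes linked to the filament and cadherin members gave mixed changes. Among 12 other intermediate filament genes and linkers 5 passed the minimum, of which *Nes* (nestin) rose from 8.74 to 21.2 and from 10.3 to 22.6 RPKM and *Prph* (peripherin) fell from 1.86 to 0.708 and from 2.22 to 0.911 RPKM. *Synm* (synemin) had log2 changes of −0.31 and −0.35, and the list had medians of −0.08 and −0.19. Of 9 catenins and cadherin anchors 7 passed, and *Jup* (plakoglobin) rose from 4.43 to 7.69 and from 4.19 to 9.85 RPKM, 1 of 7 in each genotype, while *Tjp1* (0.57 and 0.51) and *Vcl* (0.39 and 0.41) stayed under 1.5-fold, with list medians of 0.20 and 0.31. Of 15 other cadherins 4 passed and 2 fell in each genotype, where 15.3% and 13.7% of all genes fell. *Cdh13* (T-cadherin) fell 1.75-fold and 1.89-fold, *Cdh24* 1.65-fold in *Hmga2*+/+ and *Cdh18* 1.56-fold in *Hmga2*-/- MEF. *Cdh24* in *Hmga2*-/- MEF was 1.48-fold lower, just under the threshold that *Cdh18* just passed, and the list had medians of −0.50 and −0.60.

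Most epithelial genes were low. Of 30 such genes 26 were under 1 RPKM in each library and 4 passed the minimum. *Cldn1* (claudin 1) fell from 1.89 to 0.183 and from 1.86 to 0.125 RPKM, 1 of 4 in each genotype. *Cdh3* (P-cadherin) had log2 changes of −0.10 and 0.30, *Krt19* of 0.02 and 0.00 and *Dsp* (desmoplakin) of 0.01 and 0.25, with list medians of −0.05 and 0.12. *Krt19* was 4.92 and 4.93 RPKM in *Hmga2*-/- against 1.90 and 1.92 RPKM in *Hmga2*+/+ MEF and makes most of the higher epithelial marker sum given above.

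**Figure D5:**
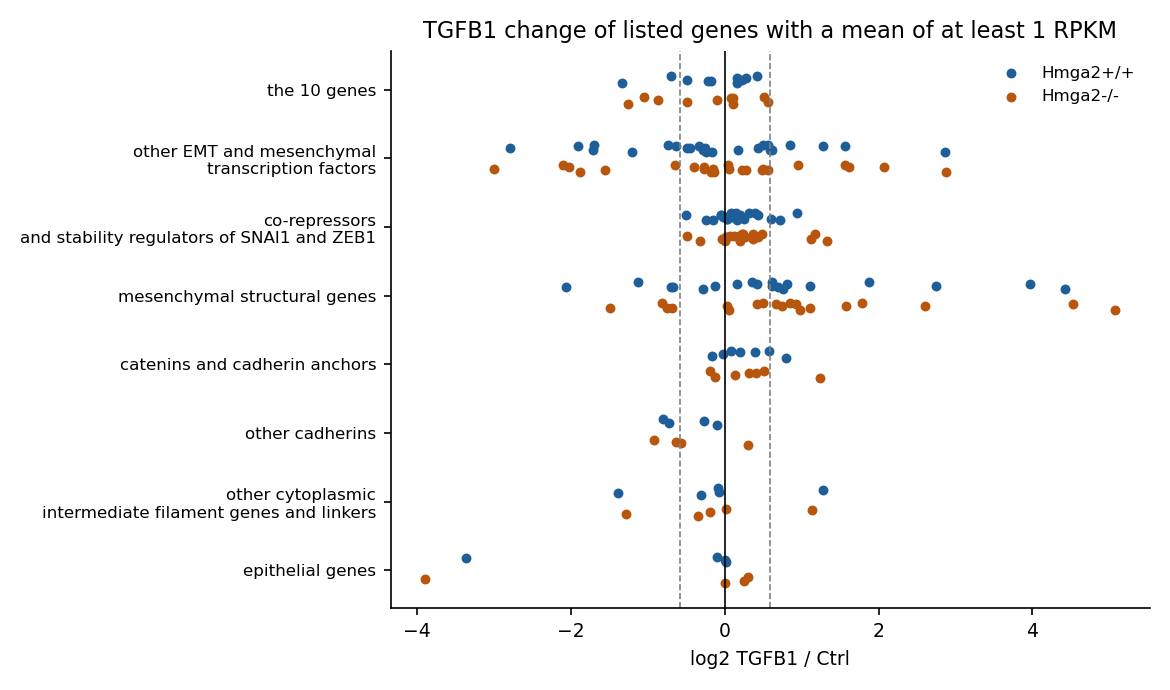
Log2 change on TGFB1 of the listed genes with a mean of at least 1 RPKM, 1 point per gene, in *Hmga2*+/+ (blue) and *Hmga2*-/- (orange) MEF, with dashed lines at 1.5-fold. Among structural genes *Spp1* lies at 3.97 and 4.52, transcription factors spread from *Osr2* to *Runx1*, and the 10 genes lie between −1.33 and 0.56.

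Genes with the profiles closest to the 3 members of widest range were found by the Euclidean distance between log2 RPKM, each centred on its mean over the 4 libraries, among 10312 other protein-coding genes. For *Snai2* they were *Ccdc136* (distance 0.0326) and *Ypel3* (0.0493), for *Twist1* *Wdsub1* (0.0489) and *Map1a* (0.0505), and for *Prrx1* *Cebpd* (0.0545) and *Psme1* (0.0650). *Ypel3* had 22.1, 8.49, 17.6 and 7.42 RPKM in the order of libraries used above, and *Psme1* had 162, 119, 203 and 110 RPKM. Within a distance of 0.25 lay 95 genes for *Snai2*, 248 for *Twist1* and 207 for *Prrx1*, so with 4 libraries such profiles are common.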

How the data were processed

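Total RNA of the 4 MEF libraries was sequenced by the authors in single-end reads of 75 bases from a stranded kit. By the study's methods they trimmed with trimmomatic, mapped with HISAT2 2.1.0 to mm10 and counted with HOMER. The authors deposited RPKM per UCSC known transcript with 3 decimals. The file header names exons on the annotated strand as the counted feature, while the methods name genes. Whether the duplicates the methods mention were pooled is not stated. The length column was also used.

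Of 63759 transcripts, 57708 were named by a GENCODE vM21 (mm10) gene on the same strand that covers at least 50% of their span, and the longest gene body stood for each gene. Calls used RPKM with 0 set to 0.001, a 1.5-fold threshold and a mean of at least 1 RPKM over the 4 libraries, which all 10 genes passed. With 1 library per condition no count or other test was run. Mapped reads were the depth at which values under 10 reads in transcripts of 100 to 600 bases are whole; 100% of 479 to 516 values per library lay within 0.1 of a whole read. Reads gave 95% Poisson, Clopper-Pearson (ratio of 2 libraries) and normal (difference of ratios) intervals, which cover counting error only. Steps were tested on simulated data. Alternatives changed the treatment of 0 RPKM, filter, scaling, threshold and transcript.

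Further genes named in the text were *Hmga2* and *Ccn2* as checks, the 3 genes of each list with the largest change in each TGFB1 comparison, and the closest profiles of 3 members. The text gives values for some of these, and 1 gene under the rule is not reported here. *Prrx2*, *Snai3*, *Zeb2os*, *Cdh1*, *Col1a1*, the markers named beside it, *Kdr*, *Tek*, *Tubb3*, the markers at 0 and the structural genes that fell were named for their role after values were seen. Members and lists were chosen with earlier results of these data known. Promoters are from RefSeq, GRCm38.p6. Tools were Python 3.11.15, numpy 2.4.6, pandas 2.3.3, scipy 1.17.1 and matplotlib 3.10.9.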

Additional observations from a re-analysis of the deposited data

Results flagged for a closer look

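*Snai1* and *Vim* had TGFB1 changes of opposite sign in the 2 genotypes, with 1 library each, and the difference was not tested over replicates. *Snai1* changed by −0.18 on the log2 scale in *Hmga2*+/+ MEF and by 0.56 in *Hmga2*-/- MEF, a difference of 0.74 that rests on 141 to 256 reads per library. The counting interval of the former, −0.52 to 0.15, includes 0, so its sign is not established. *Vim* changed by 0.22 in *Hmga2*+/+ MEF and by −0.11 in *Hmga2*-/- MEF, a difference of −0.33. Over all 10314 protein-coding genes, the TGFB1 changes of 282 (2.73%) differed between genotypes by at least 1.5-fold. The difference of *Snai1* is past that size and that of *Vim* is not, so this share is no background for *Vim*. *Prrx1* (−0.38) and *Twist1* (−0.35) differed by more than *Vim*, and both were lower after TGFB1 in each genotype. The share of all genes with changes of opposite sign was not counted.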

How the results depend on the processing

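No paired analysis was possible because each condition has 1 library, and for that reason no library could be left out. Of 200 changes of the 10 genes under alternatives, 181 stayed within the counting interval of the reported value and 19 moved outside it. All 50 values under each of the 2 pseudocounts stayed, as is likely at these levels, so the 181 says little of robustness. Rescaled libraries moved 15 values and kept 35. The transcript with the highest mean RPKM moved 4 and kept 46, and could not move *Snai1*, *Snai2*, *Vim* and *Cdh2*, which have 1 model each. In 3 of the 200 a small change turned sign, each under this choice of transcript. These were *Twist2* on TGFB1 in *Hmga2*-/- MEF (−0.03) and between genotypes in TGFB1 (−0.08), and *Zeb1* between genotypes in TGFB1 (0.02). With a pseudocount of 1 RPKM *Snai1* was no longer called between genotypes in TGFB1 (0.58, 0 of 10 genes) and its difference between responses was 0.50. At a 2-fold threshold 1 of the 10 genes fell in *Hmga2*+/+ MEF, and 0 were higher in *Hmga2*-/- MEF in Ctrl and in TGFB1. Their median change was 0.0690 in *Hmga2*+/+ MEF with rescaled libraries and −0.0676 in *Hmga2*-/- MEF with the transcript of highest RPKM.

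Counts over protein-coding genes moved as follows, the first number being genes higher. With no filter (20804 genes) they were 2408 and 3990 on TGFB1 in *Hmga2*+/+, 2699 and 3818 in *Hmga2*-/-, 1613 and 1542 between genotypes in Ctrl and 1797 and 1506 in TGFB1. At 2-fold they were 458 and 594, 524 and 574, 40 and 28, and 58 and 39. With a pseudocount of 1 RPKM they were 95 and 56 between genotypes in Ctrl and 154 and 63 in TGFB1. Depth limits *Snai1* and *Twist2*, and the lack of replicates limits every value.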
